A study of Mus musculus with 12 samples.

Results

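The 10 Toll-like receptor genes *Tlr1*, *Tlr2*, *Tlr3*, *Tlr4*, *Tlr5*, *Tlr6*, *Tlr7*, *Tlr8*, *Tlr9* and *Tlr13* were followed in 12 mouse livers. They were chosen by symbol out of 40551 genes counted in each library, by a rule that reads none of their values, although earlier results of these data were known when it was set. All 10 were among the 15070 genes that passed the filter on low counts and were tested. The libraries are total RNA-seq of whole liver from 4 genotypes with 3 livers each, sequenced on an Illumina NovaSeq. WT mice were the reference. In *Mcl1*Δhep mice, labelled Mcl1 KO, Alb-Cre deleted floxed *Mcl1*, which encodes a prosurvival BCL2 family protein, in hepatocytes. In *Sting1*-/- mice, labelled Sting1 KO, the gene of the cytosolic DNA signaling adaptor STING was disrupted, and the deletion was not limited to hepatocytes. *Mcl1*Δhep *Sting1*-/- mice, labelled Mcl1 Sting1 DKO, came from a cross of both lines. The labels name no treatment. Whether the WT and *Sting1*-/- mice carried floxed alleles or Cre is not given in the sources used here. WT and *Mcl1*Δhep livers came from mice 2 months old, whereas the age behind the other libraries is not given, and mice of both sexes were used. The comparisons ask how the receptor genes differ when *Mcl1* is missing in hepatocytes, and whether that depends on *Sting1*.

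Toll-like receptors are membrane proteins of innate immunity that recognize microbial products and signal through adaptor proteins to NF-κB and interferon regulatory factors. TLR1, TLR2, TLR4, TLR5 and TLR6 act at the cell surface, where TLR2 pairs with TLR1 or TLR6 to bind lipoproteins, TLR4 binds lipopolysaccharide and TLR5 binds flagellin. TLR3, TLR7, TLR8, TLR9 and TLR13 act in endosomes and bind nucleic acids. In the liver, Kupffer cells and recruited myeloid cells carry many of these receptors, and sinusoidal endothelial cells, B cells, dendritic cells and hepatocytes carry some of them.

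The genes differ in how well their reads can be told apart, and the coding run that *Tlr1* and *Tlr6* share is shown first because it bears on both of them. The genes are neighbors on the minus strand of chromosome 5 (GRCm39, GENCODE vM39), *Tlr1* (ENSMUSG00000044827) at chr5:65082022-65090941 and *Tlr6* (ENSMUSG00000051498) at chr5:65108704-65203497. An identical run of 229 bases lies in a coding exon of each, at chr5:65082880-65083108 and chr5:65111171-65111399, and reads 5′ to 3′ on the coding strand as follows, with no base capitalized.
Tlr1 and Tlr6 shared run: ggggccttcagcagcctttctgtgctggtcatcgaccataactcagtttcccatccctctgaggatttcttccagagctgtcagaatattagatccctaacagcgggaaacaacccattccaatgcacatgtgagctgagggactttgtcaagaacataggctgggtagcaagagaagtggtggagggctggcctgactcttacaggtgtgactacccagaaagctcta
Of all stretches of 50 bases in the annotated transcripts of *Tlr1*, 14.8% also occurred in another gene, mostly *Tlr6*, and for *Tlr6* this was 9.35%. How the authors counted reads that match both genes is not given in the sources used here, so the split between *Tlr1* and *Tlr6* is uncertain. The share was 6.99% for *Tlr7*, 5.71% for *Tlr3*, 2.11% for *Tlr4*, 1.49% for *Tlr5* and 0.25% for *Tlr13*. *Tlr2*, *Tlr8* and *Tlr9* shared no stretch of that length. *Tlr3* overlaps the antisense lncRNA Gm45542 over 438 exon bases, but Gm45542 had at most 1 count in any library. *Tlr4* overlaps the antisense lncRNA Gm69151 over 235 exon bases, which has no counts of its own here.

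Promoter sequences are shown for *Tlr2*, *Tlr1*, *Tlr13* and *Tlr5*, the genes past the test threshold in *Mcl1*Δhep livers that have a window in RefSeq (GRCm38.p6). Each window holds the 250 bases before the transcript start, 5′ to 3′ on the gene's strand, with motif matches in capitals. The *Tlr2* window is chr3:83841609-83841858 (minus strand), the *Tlr1* window chr5:64933559-64933808 (minus strand), the *Tlr13* window chrX:106143025-106143274 (plus strand) and the *Tlr5* window chr1:182954538-182954787 (plus strand).
Tlr2: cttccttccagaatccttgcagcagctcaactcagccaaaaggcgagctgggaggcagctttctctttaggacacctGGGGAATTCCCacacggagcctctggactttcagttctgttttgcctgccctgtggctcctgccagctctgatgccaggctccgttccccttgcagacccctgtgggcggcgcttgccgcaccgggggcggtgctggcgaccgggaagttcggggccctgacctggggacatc
Tlr1: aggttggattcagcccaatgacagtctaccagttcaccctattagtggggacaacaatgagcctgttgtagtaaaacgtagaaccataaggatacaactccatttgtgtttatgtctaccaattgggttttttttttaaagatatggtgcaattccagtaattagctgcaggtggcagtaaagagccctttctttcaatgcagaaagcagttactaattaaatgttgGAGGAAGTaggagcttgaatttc
Tlr13: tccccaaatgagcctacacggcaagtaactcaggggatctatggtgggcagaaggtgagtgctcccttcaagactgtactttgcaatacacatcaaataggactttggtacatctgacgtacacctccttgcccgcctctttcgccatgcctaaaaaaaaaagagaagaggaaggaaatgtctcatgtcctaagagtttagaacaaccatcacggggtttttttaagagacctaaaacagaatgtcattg
Tlr5: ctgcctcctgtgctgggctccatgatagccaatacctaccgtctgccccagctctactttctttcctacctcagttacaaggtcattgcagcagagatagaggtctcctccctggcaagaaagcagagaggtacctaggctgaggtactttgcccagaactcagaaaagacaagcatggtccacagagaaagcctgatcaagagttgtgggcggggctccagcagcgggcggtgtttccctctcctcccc
The *Tlr2* window holds 2 overlapping matches to the NF-κB motif, GGGGAATTCC at position -173 and GGGAATTCCC at position -172 from the start. The *Tlr1* window shown holds GAGGAAGT, a match to the PU.1 motif (GAGGAANT), at position -23. The windows of *Tlr13* and *Tlr5* hold no match to these motifs or to AP-1 (TGANTCA) or the interferon response element (GAAA repeated after 2 free bases), all searched on both strands. Among the other members with a window, *Tlr3* had an NF-κB match, *Tlr9* an AP-1 match, *Tlr6* 2 overlapping interferon response element matches and *Tlr8* none. *Tlr1* and *Tlr6* each have 2 windows, and the other window of each held no match to these motifs. For *Tlr1* this is chr5:64932700-64932949 (minus strand), which is not shown. Of all 32851 promoter windows of this length, 7.25% held the NF-κB motif, 5.97% the PU.1 motif, 6.75% the AP-1 motif and 2.98% the interferon response element. A match is a description of these letters and not of binding.

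The libraries held 28826367 to 45266387 counts on genes, of which 942 to 2809 fell on the 10 receptor genes. A count of 1 was worth 0.0207 to 0.0334 CPM (counts scaled to a common library size with TMM factors), so that the 8 to 32 counts of *Tlr9* per library limit its precision most. *Mcl1* had 98.6 ± 7.36 CPM in WT livers, 29.0 ± 4.58 in *Mcl1*Δhep, 22.3 ± 3.96 in *Mcl1*Δhep *Sting1*-/- and 81.8 ± 7.20 in those labelled *Sting1*-/- (3 livers each, mean ± SD). *Sting1* had 1.16 to 2.70 CPM in the libraries labelled *Sting1*-/-, which overlapped the 2.11 to 2.53 CPM of WT libraries, so these counts do not check that label. In *Mcl1*Δhep livers it had 3.67 to 6.0 CPM, above the 1.90 to 2.53 CPM of all 3 *Mcl1*Δhep *Sting1*-/- libraries (a difference of -1.07 on the log2 scale, edgeR adjusted p = 0.134). Y-linked genes were expressed in WT replicates 2 and 3 and *Mcl1*Δhep *Sting1*-/- replicate 1, and in no other library. Among the WT livers, replicate 1 alone thus matched the *Mcl1*Δhep livers in this respect. Sex and genotype can therefore not be fully told apart in that comparison. The same holds for *Sting1*-/- against WT livers. Comparisons that include the *Mcl1*Δhep *Sting1*-/- livers are unbalanced by replicate 1 of these. Small structured RNAs took 0.172% to 0.369% of counts in WT libraries and 0.283%, 2.37% and 1.36% in *Mcl1*Δhep libraries. The labels do not say which livers came from separate litters or extractions, so p-values measure the spread between these libraries.

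Levels of different receptor genes were compared in TPM, a unit of transcript abundance that corrects for exon length. In WT livers *Tlr2* had the highest level with 4.88 ± 0.50 TPM (mean ± SD, n = 3), and its 3 libraries lay above all libraries of every other receptor gene. *Tlr3* (3.03 TPM), *Tlr5* (2.89), *Tlr13* (2.46), *Tlr4* (2.42), *Tlr8* (2.03) and *Tlr7* (1.83) followed, each overlapping its neighbor in this order. *Tlr1* came next with 1.07 TPM and overlapped neither neighbor, and *Tlr6* with 0.661 and *Tlr9* with 0.392 TPM were lowest and overlapped each other.

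The order of the TPM levels differed in *Mcl1*Δhep livers. *Tlr2* had 12.4 ± 2.18 TPM and did not overlap *Tlr13*, the next gene, with 6.53 ± 2.34 TPM. *Tlr4* (4.29), *Tlr1* (3.99), *Tlr7* (2.73), *Tlr8* (2.36) and *Tlr3* (2.29 TPM) overlapped their neighbors, and *Tlr6* (1.33), *Tlr5* (1.04) and *Tlr9* (0.703 TPM) formed an overlapping group at the bottom, where *Tlr6* reached 1.57 TPM and the lowest *Tlr8* library had 1.54 TPM. *Tlr5* thus stood at the third place by mean TPM in WT livers and at the ninth place in *Mcl1*Δhep livers. In *Mcl1*Δhep *Sting1*-/- livers *Tlr2* (6.56 TPM) overlapped *Tlr13* (5.20 TPM), and *Tlr5* had 2.25 TPM. In *Sting1*-/- livers *Tlr2* (3.36 TPM) overlapped *Tlr5* (2.85 TPM), and every neighbor in the order overlapped except *Tlr6* (0.569) and *Tlr9* (0.316 TPM).

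The summed TPM of the 10 genes was 21.7 ± 1.99 in WT, 37.7 ± 8.25 in *Mcl1*Δhep, 31.5 ± 5.09 in *Mcl1*Δhep *Sting1*-/- and 18.6 ± 2.78 in *Sting1*-/- livers. The surface receptors made up 11.9 ± 0.31 TPM of this sum in WT and 23.05 ± 4.08 TPM in *Mcl1*Δhep livers, and the endosomal receptors 9.74 ± 1.90 and 14.6 ± 4.18 TPM. Within the sum, *Tlr2* took 22.2% to 22.7% in WT libraries and 30.4% to 35.1% in *Mcl1*Δhep libraries. *Tlr5* took 10.4% to 17.9% in WT and 1.56% to 4.59% in *Mcl1*Δhep libraries, so both genes shifted without overlap but in opposite directions. In *Mcl1*Δhep *Sting1*-/- libraries the share was 18.4% to 23.7% for *Tlr2* and 5.86% to 8.88% for *Tlr5*, and in *Sting1*-/- libraries it was 16% to 21.9% and 13.1% to 18.5%. These shares are descriptions and were not tested.

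**Figure D1:**
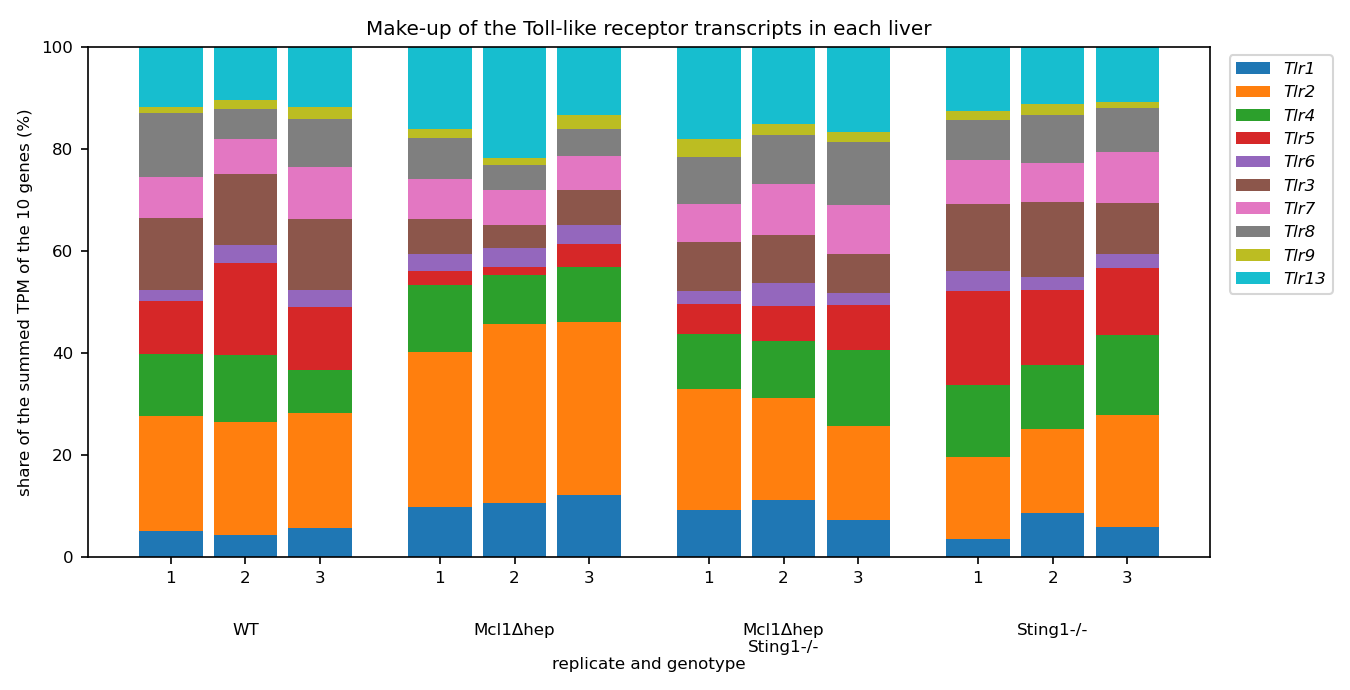
Stacked bars give the share (%) of each receptor gene in the summed TPM of the 10 genes, with 1 bar per liver and livers grouped by genotype. The *Tlr2* share was 30.4% to 35.1% in the *Mcl1*Δhep bars and 22.2% to 22.7% in the WT bars, and the *Tlr5* share was smallest in the *Mcl1*Δhep bars (1.56% to 4.59%).

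The *Tlr2* to *Tlr5* ratio of TPM was 1.24 to 2.17 in WT, 7.42 to 22.5 in *Mcl1*Δhep, 2.07 to 4.05 in *Mcl1*Δhep *Sting1*-/- and 0.864 to 1.68 in *Sting1*-/- libraries. The ratio of *Tlr2* to its partner *Tlr1* was 4.09 to 5.21 in WT, 2.84 to 3.33 in *Mcl1*Δhep, 1.80 to 2.59 in *Mcl1*Δhep *Sting1*-/- and 1.96 to 4.52 in *Sting1*-/- libraries. The *Tlr2* to *Tlr6* ratio overlapped between WT (6.32 to 10.1) and *Mcl1*Δhep libraries (8.81 to 9.84).

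With *Mcl1* deleted in hepatocytes, 4 receptor genes rose and 1 fell against WT at an adjusted p under 0.05 in edgeR's quasi-likelihood test. *Tlr1*, *Tlr2*, *Tlr4* and *Tlr13* were higher, and *Tlr5* was lower. Of all 15070 genes tested, 10.8% were called higher and 9.43% lower in this comparison. Beside that background, 4 of 10 members higher lie above it and 1 of 10 lower is near it. The median log2 fold change was 0.88 over the 10 genes and -0.0049 over all tested genes. The *Mcl1*Δhep libraries lay above all WT libraries for 6 members and below them for 2, against 16.2% and 17.1% of all tested genes. The 2 lower members are near that share. Scaling by library size alone moved the median of all genes to 0.19 and the calls to 2591 higher and 640 lower against 1629 and 1421 with TMM, and it left the direction of all 10 members as it was. In whole liver, more cells of a type and more RNA per cell cannot be told apart.

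Among the surface receptors, *Tlr2*, the shared partner of the lipoprotein receptors, measured 7.26, 6.79 and 8.35 CPM in the WT livers and 18.4, 24.2 and 17.1 CPM in the *Mcl1*Δhep livers, listed by replicate number. Each *Mcl1*Δhep library had at least 17.1 CPM, well above the highest WT library. The log2 fold change was 1.41 (standard error (SE) 0.20, 2.66-fold, edgeR adjusted p = 0.0018). *Tlr1*, which binds triacylated lipoproteins together with TLR2, had 0.976, 0.801 and 1.25 CPM in WT and 3.62, 4.47 and 3.70 CPM in *Mcl1*Δhep livers, again without overlap. Its log2 fold change of 1.96 (SE 0.38, 3.88-fold, edgeR adjusted p = 0.00651) was the largest of the 10. *Tlr6*, which binds diacylated lipoproteins together with TLR2, had 0.633, 0.949 and 1.12 CPM in WT and 1.84, 2.17 and 1.58 CPM in *Mcl1*Δhep livers. The groups did not overlap, and the log2 fold change of 1.05 (SE 0.35) missed the threshold with an edgeR adjusted p of 0.0514, whereas DESeq2 gave 0.0272.

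*Tlr4*, the lipopolysaccharide receptor, had 5.01, 5.13 and 3.96 CPM in WT and 10.2, 8.48 and 6.86 CPM in *Mcl1*Δhep livers. The groups did not overlap, with a log2 fold change of 0.86 (SE 0.18, 1.81-fold, edgeR adjusted p = 0.00888). *Tlr5*, the flagellin receptor, had 4.09, 6.70 and 5.51 CPM in WT and 1.90, 1.32 and 2.81 CPM in *Mcl1*Δhep livers. It was the single receptor gene called lower, and its highest *Mcl1*Δhep library stayed below its lowest WT library. Its log2 fold change was -1.43 (SE 0.28, edgeR adjusted p = 0.00709).

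Among the endosomal receptors, *Tlr13*, which recognizes bacterial ribosomal RNA in mice, had 3.25, 2.73 and 3.76 CPM in WT and 8.40, 12.9 and 5.79 CPM in *Mcl1*Δhep livers. The *Mcl1*Δhep libraries differed among themselves but all lay above WT, with a log2 fold change of 1.48 (SE 0.26, 2.78-fold, edgeR adjusted p = 0.00457). The single-stranded RNA receptor *Tlr7* had 2.48, 2.05 and 3.60 CPM in WT and 4.63, 4.50 and 3.26 CPM in *Mcl1*Δhep livers, which overlapped (log2 fold change 0.61, SE 0.25, edgeR adjusted p = 0.0977). *Tlr8*, next to *Tlr7* on the X chromosome, had 3.72, 1.63 and 3.20 CPM in WT and 4.47, 3.15 and 2.47 CPM in *Mcl1*Δhep livers. It overlapped widely (log2 fold change 0.24, SE 0.31, edgeR adjusted p = 0.603), and its 95% interval of -0.43 to 0.92 does not exclude a change of the size seen for *Tlr7*.

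*Tlr9*, the receptor of unmethylated CpG DNA, had 0.264, 0.356 and 0.528 CPM in WT and 0.662, 0.643 and 0.822 CPM in *Mcl1*Δhep livers. These libraries did not overlap, but with 10 to 32 counts each the log2 fold change of 0.89 (SE 0.42) did not pass the test (edgeR adjusted p = 0.148). *Tlr3*, which binds double-stranded RNA and signals through TRIF, had 4.41, 4.15 and 4.99 CPM in WT and 3.99, 3.09 and 3.38 CPM in *Mcl1*Δhep livers. Its values lay below WT without overlap, with a log2 fold change of -0.37 (SE 0.25, edgeR adjusted p = 0.295).

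**Figure D2:**
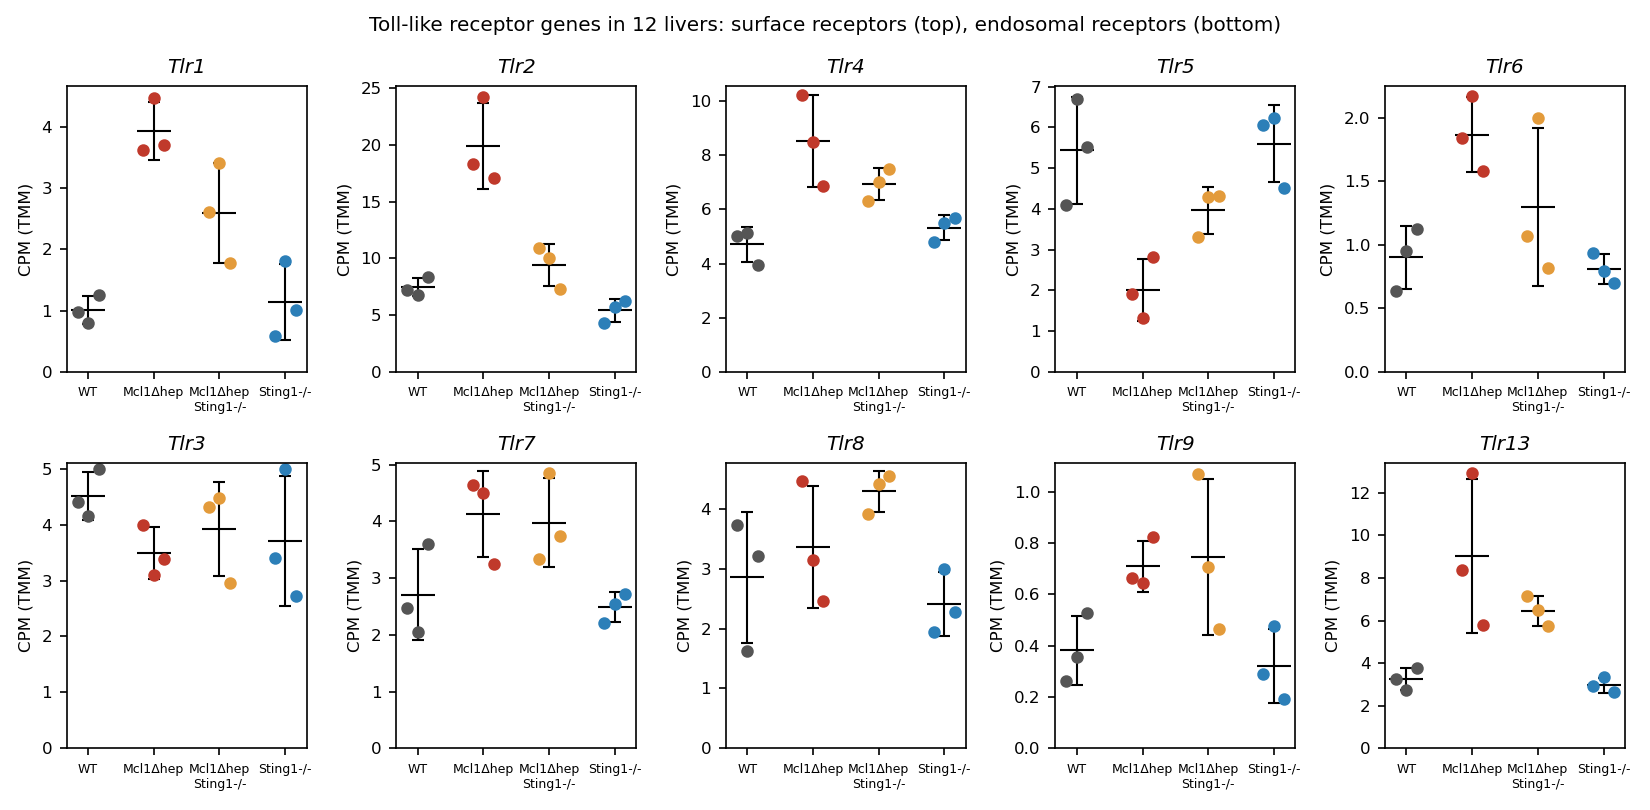
Each panel plots 1 receptor gene in CPM (scaled with TMM factors), with 1 point per liver and the mean ± SD of 3 livers for each genotype. *Tlr2* stood at 17.1 to 24.2 CPM in *Mcl1*Δhep livers, above all other livers, while *Tlr5* stood at 1.32 to 2.81 CPM there, below all other livers.

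The 5 calls were made again in fits that took the differences between libraries into account, 2 of them chosen after the data were seen. With Y-linked expression as a covariate, 4 of the 5 stayed past the threshold, and *Tlr4* did not (log2 fold change 0.74, edgeR adjusted p = 0.0575). Without the 3 libraries that express Y-linked genes, which left WT replicate 1 alone on the WT side and assumed it to vary like the others, 0 of the 10 genes and 4 of all genes were called. The log2 fold changes were then 2.0 for *Tlr1*, 1.44 for *Tlr2*, 0.76 for *Tlr4*, 1.47 for *Tlr13* and -1.03 for *Tlr5*. With a covariate for the percentage of small structured RNAs, *Tlr2* (1.15) and *Tlr4* (1.0) stayed past the threshold, whereas *Tlr1* (1.78), *Tlr13* (1.15) and *Tlr5* (-1.15) did not. Without *Mcl1*Δhep replicates 2 and 3, which had most of these RNAs, *Mcl1*Δhep replicate 1 was alone on its side and its spread was taken from the other groups. In that unreplicated comparison 4 of the 5 were called and *Tlr1* was not (1.84, edgeR adjusted p = 0.0683).

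Many markers of myeloid cells also differed between *Mcl1*Δhep and WT livers. The summed CPM of 5 monocyte markers (*Ly6c2*, *Ccr2*, *Itgam*, *Chil3* and *Cx3cr1*) was 6.32 to 8.71 in WT, 16.1 to 38.6 in *Mcl1*Δhep, 8.67 to 13.6 in *Mcl1*Δhep *Sting1*-/- and 5.99 to 6.93 in *Sting1*-/- livers. Between *Mcl1*Δhep and WT livers 4 of the 5 were called higher, against 10.8% of all tested genes. Neutrophil markers summed to 1.98 to 2.97 CPM in WT and 7.28 to 19.7 CPM in *Mcl1*Δhep livers, and 4 of 4 tested were called higher, while *Ly6g* was too low to test. General macrophage markers summed to 223 to 306 CPM in WT and 411 to 563 CPM in *Mcl1*Δhep livers, with 3 of 6 called higher (*Adgre1*, *Cd68* and *Lyz2*). Kupffer cell markers summed to 286 to 466 and 516 to 583 CPM, with 2 of 5 called higher (*Cd5l* and *Marco*). The general macrophage marker *Csf1r* had a log2 fold change of -0.07 and the Kupffer cell marker *Timd4* one of -0.29.

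Of all tested genes 10.8% were called higher in *Mcl1*Δhep livers against WT, so that 1 call of 5 is near the background. Of the 5 markers of conventional dendritic cells 2 were called higher, as were 2 of 4 tested T cell markers. So were 1 of 5 stellate cell markers (*Des*) and 2 of 4 tested markers of plasmacytoid dendritic cells. The last 2 were *Klk1* and *Ly6d*, which epithelia also express, whereas *Siglech* and *Ccr9* were not called. None of the 6 B cell markers, the 5 sinusoidal endothelial markers or the 5 cholangiocyte markers passed the test in edgeR, with 0 genes of each list at an unadjusted p under 0.05. Of 5 hepatocyte markers, *Serpina1c* was called lower, against 9.43% of all tested genes. The list summed to 80381 to 135400 CPM in WT and 93459 to 123800 CPM in *Mcl1*Δhep livers. The part of these cells in the receptor levels was not tested.

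The 12 livers fall in 4 genotype groups and differ in library depth. For correlations, each marker list was taken as the mean log2 CPM of its tested markers, not as their summed CPM. Across these livers, *Tlr2* and the monocyte markers had a Pearson correlation of log2 CPM of 0.96, and *Tlr13* one of 0.92. *Tlr5* and the same markers had -0.97, and *Tlr3* had -0.28. With the genotype means removed, the values were 0.83 for *Tlr2*, 0.76 for *Tlr13*, -0.86 for *Tlr5* and -0.08 for *Tlr3*. The Spearman values over the 12 livers were 0.90, 0.82, -0.95 and -0.44 in the same order. The other called genes had Pearson values of 0.85 (*Tlr1*) and 0.76 (*Tlr4*), or 0.34 and -0.07 with the genotype means removed. Other marker lists came close to the monocyte markers in the Pearson values over the 12 livers. *Tlr2* had 0.92 with plasmacytoid dendritic cell markers and 0.87 with neutrophil markers, and *Tlr5* had -0.93 with conventional dendritic cell markers. With the genotype means removed, these values were 0.307, 0.625 and -0.773. These are descriptions over 12 libraries in 4 groups and have no test.

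**Figure D3:**
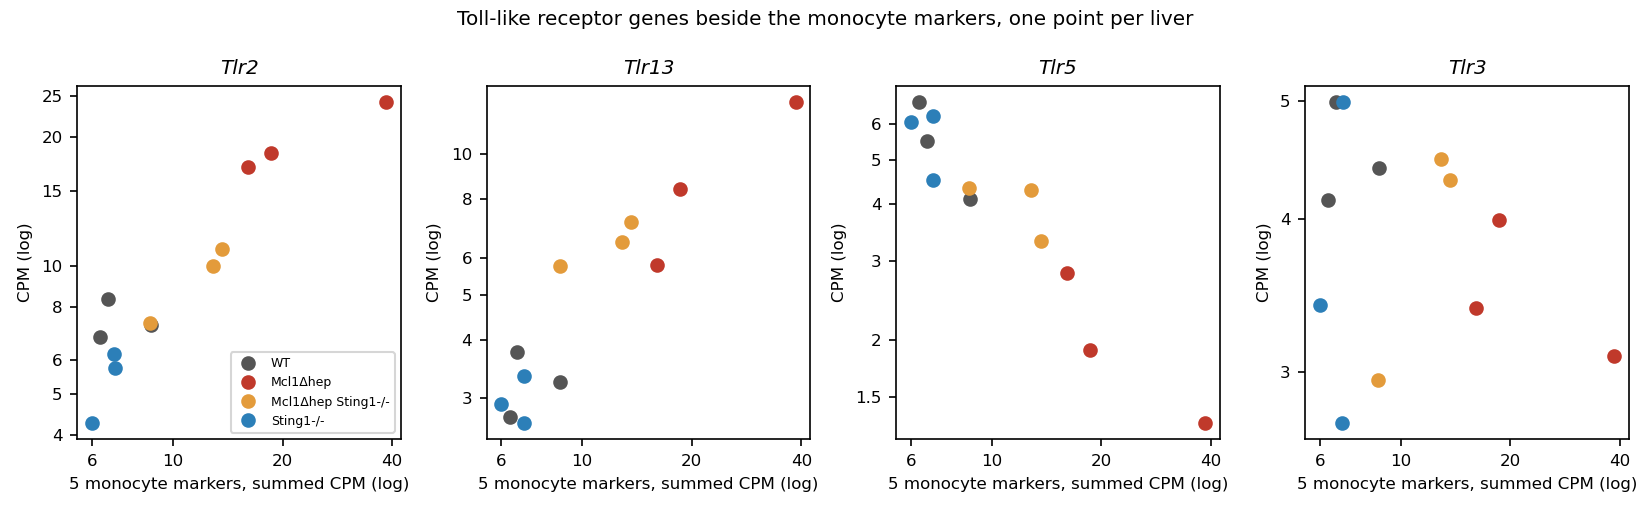
Each point is 1 liver, with the summed CPM of 5 monocyte markers on a log x axis and the CPM of a receptor gene on a log y axis. *Tlr2* and *Tlr13* were highest and *Tlr5* was lowest in the *Mcl1*Δhep liver with the highest marker sum (38.6 CPM), and *Tlr3* spread over 2.73 to 4.99 CPM among livers with low marker sums.

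The second comparison set *Mcl1*Δhep *Sting1*-/- against *Mcl1*Δhep livers and asked whether receptor levels in *Mcl1*-deleted livers differ with *Sting1*. *Tlr2* was lower and *Tlr5* higher in the livers labelled *Mcl1*Δhep *Sting1*-/-, both without overlap, but 0 of the 10 genes passed the adjusted threshold. None of the 15070 tested genes did in edgeR (0%), although 3098 of all genes and 2 members had an unadjusted p under 0.05. DESeq2 called 671 genes, *Tlr2* and *Tlr5* among them. A simulation scored *Mcl1*Δhep against WT, where DESeq2 made 34 false calls and edgeR 6. It did not score the present comparison and so does not decide the calls that DESeq2 alone made. *Tlr2* had 10.96, 9.99 and 7.33 CPM in *Mcl1*Δhep *Sting1*-/- replicates 1 to 3, between the WT and the *Mcl1*Δhep range except for replicate 3. Its log2 fold change was -1.08 (SE 0.20, edgeR adjusted p = 0.131, DESeq2 adjusted p = 0.00054). Without *Mcl1*Δhep replicate 1 the edgeR adjusted p was 0.00735, and 3108 of all genes were then called.

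*Tlr5* had 3.31, 4.29 and 4.32 CPM in *Mcl1*Δhep *Sting1*-/- livers. All 3 exceeded the *Mcl1*Δhep libraries, with a log2 fold change of 0.99 (SE 0.28, edgeR adjusted p = 0.139, DESeq2 adjusted p = 0.0327). *Tlr1* had 2.61, 3.41 and 1.78 CPM, all below the *Mcl1*Δhep libraries (log2 fold change -0.59, SE 0.36, edgeR adjusted p = 0.358). Thus 1 member was higher and 2 were lower without overlap, against 8.97% and 9.28% of all tested genes, and the 1 higher member is near that share. The median log2 fold change of the 10 genes was -0.18.

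*Tlr4* had 6.31, 7.02 and 7.50 CPM in *Mcl1*Δhep *Sting1*-/- livers and overlapped *Mcl1*Δhep (log2 fold change -0.30, SE 0.18). *Tlr13* had 7.15, 6.48 and 5.75 CPM, a log2 fold change of -0.48 (SE 0.25), and *Tlr6* had 1.07, 2.0 and 0.821 CPM, a log2 fold change of -0.52 (SE 0.34). The differences of *Tlr3* (0.16), *Tlr7* (-0.05), *Tlr8* (0.35) and *Tlr9* (0.07) had 95% intervals that include 0. All 5 monocyte markers had negative log2 fold changes in this comparison (median -0.92), with 0 past the adjusted threshold in edgeR and 4 at an unadjusted p under 0.05.

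The third comparison, *Sting1*-/- against WT livers, called 0 of the 10 genes and 0% of all tested genes in edgeR, with 1 member and 821 of all genes at an unadjusted p under 0.05. DESeq2 called 0 members and 49 of all genes. *Tlr2* had 4.28, 5.76 and 6.20 CPM in the libraries labelled *Sting1*-/-, all below WT, with a log2 fold change of -0.46 (SE 0.20, edgeR adjusted p = 0.885). It was the sole member whose libraries did not overlap, and 5.46% of all tested genes lay lower and 7.06% higher without overlap. The log2 fold changes of the other 9 lay between -0.28 for *Tlr3* and 0.18 for *Tlr4*. The 95% interval for *Tlr5*, -0.55 to 0.64, shows how large a change these livers leave undecided. WT replicates 2 and 3 expressed Y-linked genes and no *Sting1*-/- library did, so sex and genotype cannot be fully told apart here either.

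The fourth comparison, *Mcl1*Δhep *Sting1*-/- against *Sting1*-/- livers, gave the *Mcl1* difference among the livers labelled *Sting1*-/-. No member passed the adjusted threshold, 6 had an unadjusted p under 0.05, and edgeR called 0.803% of all genes (121) with 1709 at an unadjusted p under 0.05. DESeq2 called 474 genes and 3 of the members, *Tlr1*, *Tlr2* and *Tlr13*. *Tlr13* had 2.91, 3.34 and 2.65 CPM in *Sting1*-/- livers and 7.15, 6.48 and 5.75 CPM in *Mcl1*Δhep *Sting1*-/- livers, which lay clearly apart. Its log2 fold change was 1.12 (SE 0.26, edgeR adjusted p = 0.0794, DESeq2 adjusted p = 0.00421). The edgeR adjusted p was 0.0475 without *Mcl1*Δhep replicate 2 and 0.0374 without *Mcl1*Δhep replicate 3, which enter this comparison through the shared spread.

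*Tlr2* had a log2 fold change of 0.80 (SE 0.20, edgeR adjusted p = 0.102), or 0.97 with an adjusted p of 0.0338 without *Mcl1*Δhep *Sting1*-/- replicate 3, and its groups did not overlap. *Tlr8* had 1.95, 3.0 and 2.27 CPM in *Sting1*-/- and 3.91, 4.41 and 4.54 CPM in *Mcl1*Δhep *Sting1*-/- livers, without overlap (log2 fold change 0.83, SE 0.31, edgeR adjusted p = 0.314). *Tlr7* had 2.21, 2.55 and 2.73 CPM in *Sting1*-/- and 3.34, 4.85 and 3.75 CPM in *Mcl1*Δhep *Sting1*-/- livers (0.67, edgeR adjusted p = 0.306). *Tlr4* (0.38) was also higher without overlap, so that 5 members were higher and 1, *Tlr5* (-0.49, edgeR adjusted p = 0.561), was lower, against 11.5% and 10.8% of all tested genes. The 1 lower member is near that share. *Tlr1* (1.19), *Tlr9* (1.21), *Tlr6* (0.69) and *Tlr3* (0.08) overlapped. The median over the 10 was 0.74.

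**Figure D4:**
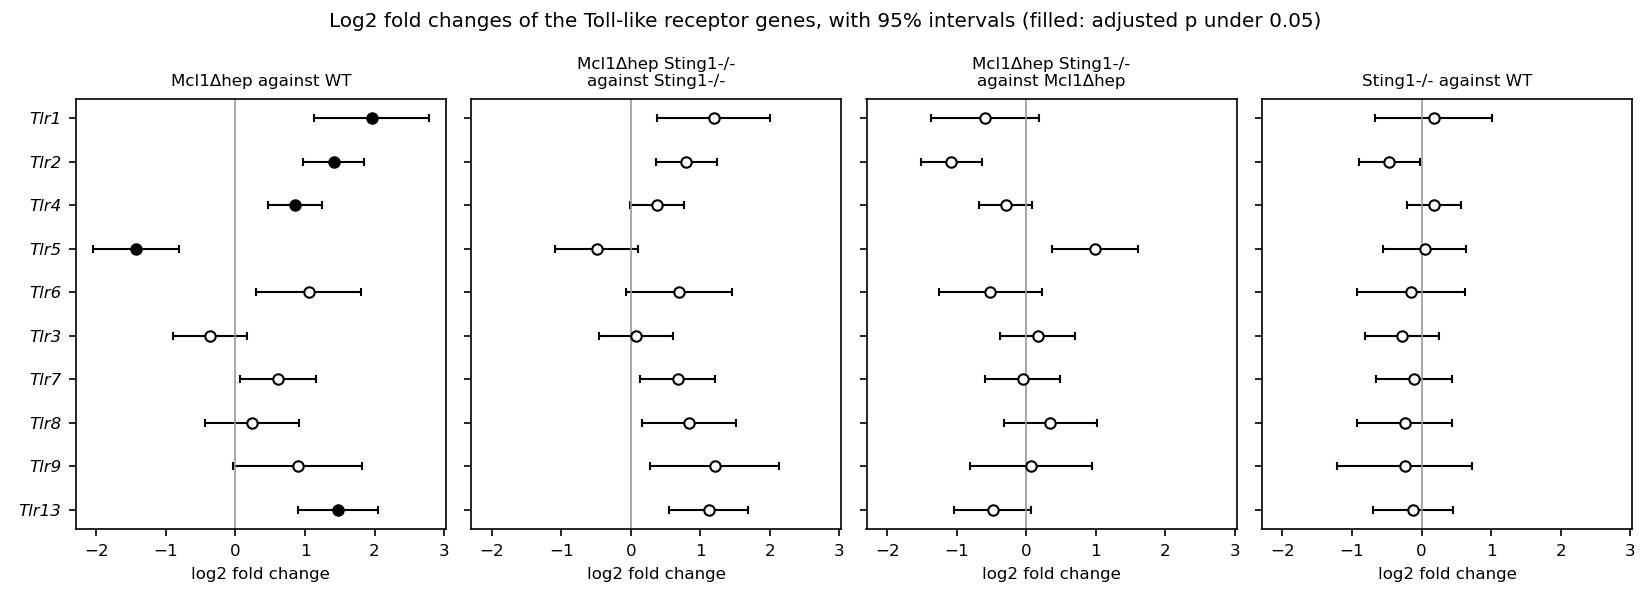
Points give the log2 fold change of each receptor gene in 4 comparisons and bars the 95% interval, with filled points for an edgeR adjusted p under 0.05. The filled points are *Tlr1*, *Tlr2*, *Tlr4*, *Tlr13* (0.86 to 1.96) and *Tlr5* (-1.43) in *Mcl1*Δhep against WT, and the panels share control livers.

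Whether the *Mcl1* difference itself depended on *Sting1* was tested as an interaction, and 0 of the 10 genes and 0% of all genes passed the adjusted threshold in edgeR. In all, 1 member and 2165 of all genes had an unadjusted p under 0.05, and DESeq2 called 0 members and 172 of all genes. The member was *Tlr5*, whose *Mcl1* difference was 0.94 log2 units less negative in the livers labelled *Sting1*-/- (SE 0.39, edgeR adjusted p = 0.322). For *Tlr2* the difference was 0.61 log2 units smaller (an interaction of -0.61, SE 0.28, edgeR adjusted p = 0.349), for *Tlr1* the interaction was -0.76 (adjusted p = 0.507) and for *Tlr4* -0.48 (adjusted p = 0.397). *Tlr8* (0.59), *Tlr3* (0.45), *Tlr9* (0.31), *Tlr7* (0.06), *Tlr13* (-0.36) and *Tlr6* (-0.36) had adjusted p-values of 0.507 or more. The 4 comparisons share libraries, and their values are therefore set side by side without a count of shared directions.

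The other genes of the pathway were taken from lists by role, ordered from the receptors inward. Of 12 coreceptors, chaperones and transporters, 3 rose and 1 fell in *Mcl1*Δhep against WT livers. Of all tested genes 10.8% were called higher and 9.43% lower in this comparison, so that 1 lower call is near the background. *Cd36*, a scavenger receptor that assists TLR2, had a log2 fold change of 1.70 (edgeR adjusted p = 0.0117), *Cd180*, a TLR4-related regulator, 1.19 (0.0276) and *Lgmn*, a lysosomal protease that processes endosomal receptors, 0.88 (0.00246). The gene that fell was *Cnpy3*, a chaperone of the receptors, with -0.38 (0.0421). *Cd14*, *Ly96* and *Unc93b1* did not pass the test.

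Of 20 adaptors and proximal kinases, 0 rose and 3 fell in *Mcl1*Δhep livers, against 10.8% and 9.43% of all tested genes. They were *Tirap* (log2 fold change -0.91, edgeR adjusted p = 0.034), an adaptor of TLR2 and TLR4, *Chuk* (-0.81, 0.0151), an IκB kinase subunit, and *Irak1* (-0.48, 0.0189). *Myd88*, *Ticam1* and the other list members were not called, and the median log2 fold change over all 20 was -0.20. Of 8 transcription factors, *Relb* (1.11) and *Nfkb2* (1.07), both of the noncanonical NF-κB branch, rose and *Irf3* (-0.34) fell, and 1 lower call is near the 9.43% of all genes. Of 12 inhibitors, *Tnfaip3*, which encodes A20, rose by 1.30 and its partner *Tnip1* by 0.63, whereas the deubiquitinase gene *Cyld* fell by 0.69 on the log2 scale, again 1 lower call.

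Of 18 target genes 13 were tested, of which 6 rose and 0 fell in *Mcl1*Δhep livers, against 10.8% and 9.43% of all tested genes. The adhesion molecule *Icam1* rose from 15.1 to 28.82 CPM (log2 fold change 0.93, SE 0.14, edgeR adjusted p = 0.00197). The other 5, *Cxcl2*, *Ccl4*, *Acod1*, *Cd80* and *Cd40*, averaged below 1 CPM over the 12 libraries, with log2 fold changes of 1.0 to 3.66. Few reads stand behind these, since *Cxcl2* had 1, 1 and 2 counts in the WT libraries. Its fitted fold change therefore depends on edgeR's default prior count in the fit, which is not the 2 used for log2 CPM. *Acod1* had 3, 2 and 21 counts in WT livers. *Ifnb1* had 0 counts in all 12 libraries, where the floor of 3 counts was 0.0621 to 0.1 CPM, and *Il6*, *Il10*, *Il12b* and *Ptgs2* had at most 16 counts in any library and were not tested. The median over the 13 tested was 1.44 against WT and -0.67 in *Mcl1*Δhep *Sting1*-/- against *Mcl1*Δhep livers, where 0 of the 13 passed the adjusted threshold in edgeR and 4 had an unadjusted p under 0.05. Over 23 alternative fits of *Mcl1*Δhep against WT, *Icam1* and *Lgmn* stayed past the threshold in 22, *Tnfaip3* in 21 and *Cd36* in 20, whereas *Tirap* did in 12, *Acod1* in 8, *Cnpy3* in 6 and *Irf3* in 5. Among the other target genes, *Ccl4* did in 20, *Cxcl2* in 18 of its 20 fits, *Cd40* in 12 and *Cd80* in 6 of its 22 fits. *Nfkb2* and *Relb* did in 17, *Chuk* in 16, *Cyld* and *Tnip1* in 15 and *Cd180* and *Irak1* in 14. In the comparisons other than *Mcl1*Δhep against WT, no gene of these 5 lists passed the adjusted threshold in edgeR.

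**Figure D5:**
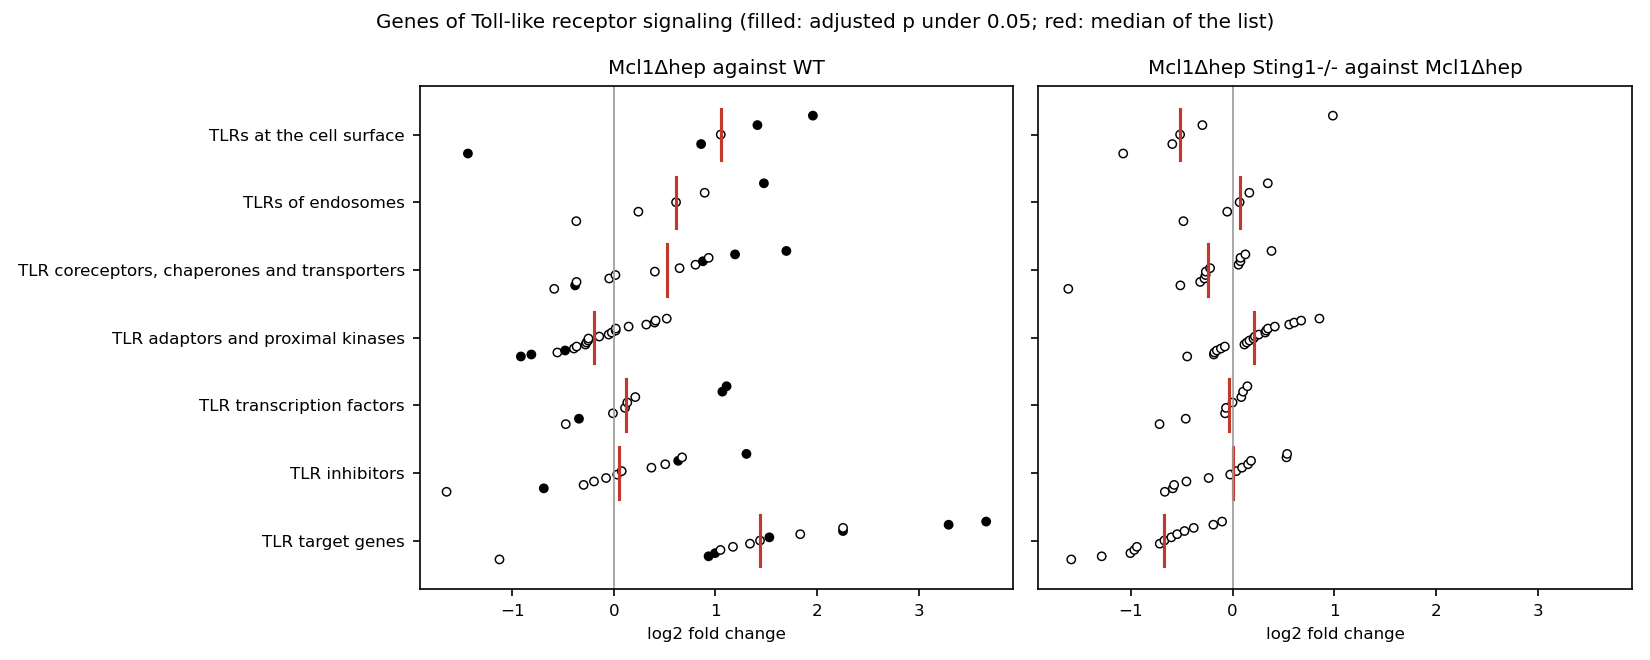
Points give the log2 fold change of each tested gene of Toll-like receptor signaling by list, in *Mcl1*Δhep against WT (left) and in *Mcl1*Δhep *Sting1*-/- against *Mcl1*Δhep livers (right), filled where the edgeR adjusted p was under 0.05, and red lines give list medians. The target genes had a median of 1.44 on the left and -0.67 on the right, where 0 points are filled.

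Across the 12 livers, the members also differed in which genes varied most like them, by Pearson correlation of log2 CPM among genes of at least 1 CPM. *Tlr2* was most like *Plaur* (r = 0.97), *Adam8* (0.97) and *Ace* (0.97), and *Tlr1* like *Atp6v1b2* (0.98), *Mmp27* (0.97) and *Cyrib* (0.97). *Tlr13* was most like *Sh3pxd2b* (0.97), *Myof* (0.97) and *Cerk* (0.96), *Tlr4* like *Id4* (0.95), *Tgm2* (0.94) and *Rab8b* (0.94) and *Tlr6* like *H3c10* (0.91), *Apex1* (0.90) and *Hapln1* (0.90). *Tlr5* was most like *Rab3ip* (0.98), *Ghr*, the growth hormone receptor gene (0.97), and *Pdha1* (0.96).

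The remaining members, none of them called, had other neighbors. *Tlr3* was most like *Ezh1* (r = 0.95), *Dcp1b* (0.93) and *Senp7* (0.93), *Tlr7* like *Tifab* (0.95), *Apobr* (0.94) and *Lpcat2* (0.93) and *Tlr8* like *Il10ra* (0.88), *Itpripl2* (0.88) and *Dock10* (0.87). *Tlr9* was most like *Blm* (0.92), 4933431E20Rik (0.92) and *Spc24* (0.92). Between members, the highest values were 0.90 for *Tlr1* and *Tlr13* and 0.88 for *Tlr2* with either of them, and the lowest was -0.92 for *Tlr2* and *Tlr5*. With genotype means removed, *Tlr5* had values of 0.93 with *Rab3ip* and 0.95 with *Ghr*, *Tlr2* one of 0.66 with *Ace* and -0.62 with *Tlr5*, and *Tlr1* one of 0.43 with *Tlr13* and -0.04 with *Tlr4*. These points share libraries and genotypes, and no p is given.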

How the data were processed

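Total RNA was sequenced from 12 mouse livers, 3 of each genotype. The authors deposited unnormalized counts, the whole reads assigned to every Ensembl gene. The submitters' processing notes in the labels name STAR, featureCounts and GRCm39, without versions or settings. The annotation release, the use of strand and the counting of reads shared between genes are not given in the sources used here, and the labels and the study's methods name different RNA extraction kits.

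Genotypes were taken from the labels. The quasi-likelihood model of edgeR 4.0.16 gave CPM (TMM), log2 fold changes and p-values (filterByExpr by genotype, glmQLFit and glmQLFTest, all 12 libraries without covariates) in R 4.3.3, with Benjamini-Hochberg adjustment over the 15070 genes tested and a threshold of 0.05. Standard errors are the log2 fold change divided by the square root of the F statistic. The common dispersion was 0.0699. DESeq2 1.42.0 was an alternative. A prior count of 2 was used for log2 CPM, and the edgeR fits kept the default of the tool. TPM used the summed exon lengths of GENCODE vM39, which holds 39533 of 40551 identifiers. Stretches shared between genes were counted over all annotated transcripts, and promoter windows came from RefSeq (GRCm38.p6, 8 of the 10 genes). Floors are 3 counts per library, and they and the depth cover counting error only.

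The receptor genes, taken by symbol, and all lists were chosen with earlier results of these data known. Of each pathway list, up to 3 called genes with the largest log2 fold change in *Mcl1*Δhep against WT livers and at least 1 CPM on average were named, and for each receptor gene the 3 genes most correlated with it. *Cnpy3*, *Cxcl2*, *Ccl4*, *Acod1*, *Cd80*, *Cd40* and the list members given as not called were named after their values were seen. Both tools were checked on simulated *Mcl1*Δhep and WT libraries of 14838 genes, of which 196 had a log2 change of 2. For *Mcl1*Δhep against WT, edgeR found 160 of these with 6 false calls and DESeq2 found 167 with 34. The simulated counts were drawn with spreads estimated by edgeR, and DESeq2 was scored in no other comparison. Counts of replicate pairs had a chi-square of 40.1 to 290.3 per degree of freedom, far above sampling noise, and each library was counted as 1 sample. The alternatives were other scalings, filters, tests and covariates, a fit of only the groups compared, a block for the replicate number, and fits without each library. Python 3.11.15, pandas 2.3.3, numpy 2.4.6 and matplotlib 3.10.9 were used for descriptions and figures. Sequencing data of other assays and human tissue were not analysed here.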

Additional observations from a re-analysis of the deposited data

How the results depend on the processing

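Between *Mcl1*Δhep and WT livers, the 5 called receptor genes kept their direction under all alternatives and were each called in all 12 fits that left out a library, which called 5 to 6 members. *Tlr6* was the added call, without *Mcl1*Δhep *Sting1*-/- replicate 2 or 3. It was also called by DESeq2, with the RLE scaling, with library size alone (which added *Tlr7*) and with a filter of 1 CPM in 3 libraries. The small structured RNA covariate left 2 members and 490 of all genes called, and leaving out both *Mcl1*Δhep libraries rich in these RNAs left 824 genes. Leaving out the 3 libraries with Y-linked expression left 0 members and 4 genes, and the Y-linked covariate 1514 genes. A fit of only the groups compared called 1178 genes. The fits that leave out libraries or groups hold fewer samples, and otherwise the cause was not tested. No called value reversed.

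For *Mcl1*Δhep *Sting1*-/- against *Mcl1*Δhep livers, DESeq2 called 2 members and 671 genes, and the Y-linked covariate and leaving out both libraries rich in small structured RNAs called 2 genes each. For *Sting1*-/- against WT livers, DESeq2 called 49 genes, the fit of only the groups compared 2, and leaving out the libraries with Y-linked expression or those rich in small structured RNAs 1 each. For *Mcl1*Δhep *Sting1*-/- against *Sting1*-/- livers, DESeq2 called 3 members and 474 genes, the fit of only the groups compared 17 genes, the Y-linked covariate 50 and leaving out the libraries with Y-linked expression 0, while leaving out both libraries rich in small structured RNAs called 1 member (*Tlr13*). DESeq2 called 172 genes for the interaction.

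Leaving out each library in turn gave 1233 to 5232 genes for *Mcl1*Δhep against WT (lowest without WT replicate 2 and highest without *Mcl1*Δhep replicate 1, with 1238 without *Mcl1*Δhep replicate 2 and 1596 without WT replicate 3). It gave 0 to 3108 genes and 0 to 1 members for *Mcl1*Δhep *Sting1*-/- against *Mcl1*Δhep (highest without *Mcl1*Δhep replicate 1, with 2 and 6 genes without *Mcl1*Δhep replicates 2 and 3). For *Sting1*-/- against WT it gave 0 to 22 genes (highest without WT replicate 1, with 3 without WT replicate 3 and 1 each without *Mcl1*Δhep replicate 2, *Sting1*-/- replicate 3 or *Mcl1*Δhep *Sting1*-/- replicate 3). For *Mcl1*Δhep *Sting1*-/- against *Sting1*-/- it gave 1 to 249 genes and 0 to 1 members (highest without *Mcl1*Δhep *Sting1*-/- replicate 3, and 1 to 65 without WT replicate 2 or 3, *Mcl1*Δhep replicate 2, any *Sting1*-/- library or either other *Mcl1*Δhep *Sting1*-/- library). For the interaction it gave 0 to 1574 genes (highest without *Mcl1*Δhep replicate 1, with 88 without WT replicate 1 and 1 without *Sting1*-/- replicate 3). The pathway lists depended more on the setting. The target genes called in *Mcl1*Δhep against WT livers ranged from 3 to 7 over the fits that left out a library and from 0 to 9 over the other alternatives, and the adaptors and kinases from 0 to 7 and from 0 to 4.

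Replicate numbers did not pair the libraries, since same-numbered libraries of different genotypes had correlations of -0.54 to 0.25 and 4 of 12 libraries correlated best with their own number. With the replicate block, 5, 0, 0 and 0 members and 2591, 0, 0 and 129 genes were called in the 4 comparisons, and 0 members and 0 genes for the interaction. The depth limits *Tlr9*, *Tlr6* and *Tlr1* in WT livers most, with 10 to 38 counts per library.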
